A study of Homo sapiens with 42 samples.

Results

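The 38 rows described here are transcripts that were lower in OCI-Ly3 lymphoma cells after both 8 h and 24 h with compound 3, a covalent MALT1 inhibitor. They were chosen by their deposited values: a row had to average at least 5 CPM (read counts scaled to a common library total) over the 12 OCI-Ly3 libraries of the compound experiment, and log2(CPM + 1) had to lie lower by 0.2 or more with the compound in all 3 pairs at 8 h and all 3 pairs at 24 h. A pair is the compound library and the DMSO library of the same time and replicate number. Of the 23250 rows in the deposited tables, 9595 reached the level and 38 of these, 0.396%, met the rule. The mirrored rule, higher by 0.2 or more in all 6 pairs, was met by 37 rows. The tables number their gene models without naming them, so members are given by row number, and no function is attached to any of them.

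OCI-Ly3 and TMD8 are long-established human lymphoma lines of the ABC (activated B-cell-like) type of DLBCL, diffuse large B-cell lymphoma, and RNA of both was sequenced. In the compound experiment both lines were kept for 8 h or 24 h with compound 3 at 100 nM or with the solvent DMSO alone, which makes 8 groups. In the knockdown experiment a lentivirus brought 1 of 2 hairpins against MALT1 or a non-targeting control hairpin into each line, which makes 6 groups, and no time after infection is given. Each of the 14 groups holds 3 libraries, and nothing in the labels places these in separate cultures, so the spread behind each p-value is that of these libraries and may be technical. The level of MALT1 is not used here, since its row has no name, and neither the knockdown nor the B-cell identity of the lines was checked on named genes. In RNA from bulk cultures, fewer cells that express a transcript and less transcript per cell cannot be told apart.

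MALT1 is a paracaspase that acts in signalling below the B-cell receptor. It acts as a scaffold that passes the signal on to NF-kB, and as a protease that cleaves proteins which restrain NF-kB and the stability of messenger RNAs. Lymphomas of the ABC type often depend on this pathway. A protease inhibitor blocks the cleavage, while a hairpin against MALT1 lowers the whole protein, scaffold included.

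Between 23.3 and 31.6 M reads per library lay in the rows in the compound experiment, and between 15.8 and 19.4 M in the knockdown. One CPM therefore stood for 32.3 to 40.9 reads in the first and 20.5 to 24.5 reads in the second. One library stood apart: the OCI-Ly3 non-targeting control numbered 1 differed by over 1 log2 unit from the average of its fellow controls in 1168 of 12303 rows, and in 6 of the 38 members, 4 of them higher and 2 lower. Values that moved by over 1.5 times, or changed direction or call, without this control are given both ways.

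Over the 12 libraries that the rule read, the members' mean level ran from 6.08 to 620.5 CPM with a median of 26.6 CPM, against a median of 34.3 CPM for the 9595 rows that reached the level. There were 8 members over 100 CPM and 7 under 10 CPM. No member had values identical to another row, and none sat next to another member in the numbering. The mean of the 3 pair differences ran from -1.40 to -0.24 at 8 h (median -0.45) and from -1.53 to -0.27 at 24 h (median -0.49), all in log2(CPM + 1). At least a halving on this scale, a mean difference of -1 or lower, was reached by 5 members at 8 h and 3 members at 24 h. The difference was the more negative at 8 h in 16 members and at 24 h in 22, and the median change from 8 h to 24 h was -0.04. These values chose the members and are given without a test.

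Row 14333 had the lowest mean over the 6 pairs, -1.47. Its CPM was 13.8, 9.90 and 11.4 with DMSO and 5.58, 2.98 and 3.14 with the compound at 8 h. At 24 h it was 6.67, 7.73 and 6.54 with DMSO and 1.64, 1.76 and 1.88 with the compound. All 6 compound libraries lay below all 6 DMSO libraries, and the level with DMSO was itself lower at 24 h. Row 17384 came next, with a mean of -1.23. It read 89.99, 36.5 and 62.3 CPM with DMSO and 31.0, 17.1 and 24.0 CPM with the compound at 8 h, and 59.6, 31.4 and 39.9 CPM against 17.6, 18.2 and 19.3 CPM at 24 h. Its DMSO libraries were spread widely and the 24 h compound libraries hardly at all, so the pair differences ran from -1.70 to -0.75. Row 13028, with a mean of -0.94, read 94.8, 68.7 and 97.6 CPM with DMSO and 50.9, 26.7 and 46.8 CPM with the compound at 8 h. The replicate numbered 2 was the lowest in both groups.

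The most abundant member was row 4507. At 8 h it read 705, 647 and 1027 CPM with DMSO and 465, 418 and 629.9 CPM with the compound. At 24 h it read 598, 673 and 774 CPM with DMSO and 479.7, 472 and 559 CPM with the compound. The groups did not overlap at either time, and the third replicate was the highest in all 4 groups. Some members had their lower mean difference at 24 h: row 11015 went from 27.1, 18.1 and 21.8 CPM with DMSO to 22.2, 12.2 and 14.8 CPM with the compound at 8 h, where the groups overlapped, and from 14.4, 11.6 and 12.8 CPM to 5.78, 5.65 and 6.31 CPM at 24 h, where they did not. In row 3254 the mean difference was -0.53 at 8 h and -0.91 at 24 h. Its 24 h libraries were tight, at 36.3, 34.1 and 36.5 CPM with DMSO and 18.2, 18.6 and 18.7 CPM with the compound. Row 9018 had -0.34 at 8 h and -0.98 at 24 h. Other members went the opposite way, such as row 1460 with -1.07 at 8 h and -0.64 at 24 h, and row 9633 with -0.56 and -0.27. No test was made of the difference between the times.

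**Figure D1:**
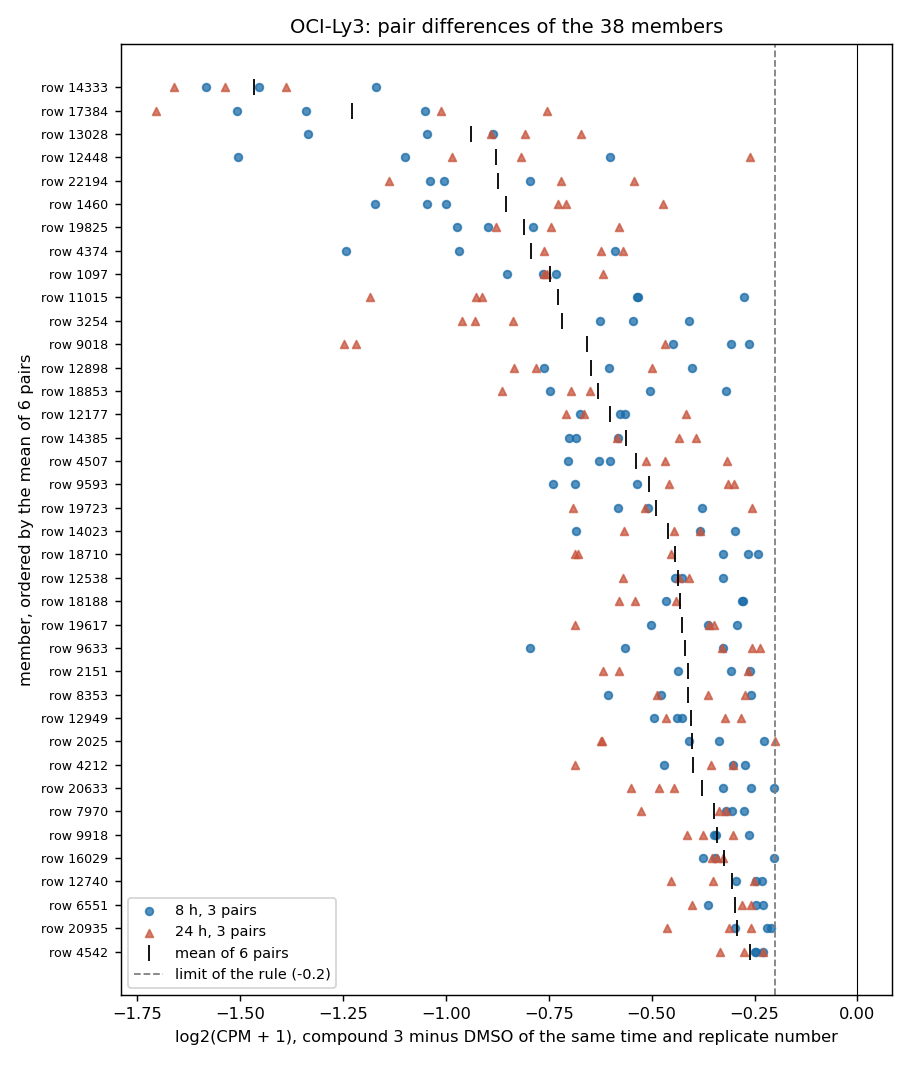
Difference in log2(CPM + 1), compound 3 minus DMSO of the same time and replicate number, for the 38 members in OCI-Ly3 (rows on the vertical axis, ordered by the mean of the 6 pairs). Circles are the 3 pairs at 8 h, triangles the 3 pairs at 24 h, the black tick the mean of the 6 pairs and the dashed line the limit of -0.2, which every point meets because the rule requires it; row 14333 stands lowest with a mean of -1.47.

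The limit sat in a dense range of values. The least negative pair was -0.201 in row 2025, -0.203 in row 20633 and -0.204 in row 16029, the members nearest to it. Just outside, it was -0.197 in row 12505, -0.196 in row 6227 and -0.193 in row 12461, and the mean over the 6 pairs of these non-members, -0.44, -0.47 and -0.37, lay within the range of the members. A limit of -0.1 would have given 117 rows and a limit of -0.3 would have given 16.

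With DMSO alone the members also differed between the times in OCI-Ly3. The 24 h minus 8 h difference had a median of -0.19 over the members and -0.01 over all 12589 rows tested in the experiment. It was below 0 in 28 members and above 0 in 10, and it ran from -1.23 (row 7970) to 0.39 (row 9018). Row 14023 read 43.1, 24.8 and 32.9 CPM at 8 h and 13.6, 17.6 and 24.9 CPM at 24 h. These are the libraries the rule used, so the values are a description. All members together took up 0.497% ± 0.054 (SD, n = 3) of the reads in the rows with DMSO and 0.334% ± 0.031 with the compound at 8 h, and 0.433% ± 0.015 and 0.307% ± 0.019 at 24 h.

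TMD8 expressed most members. In 29 of the 38 the mean was 5 CPM or more in both TMD8 DMSO groups, and 25 members had a higher DMSO level in OCI-Ly3 than in TMD8. The rule asked for a level in OCI-Ly3 only, which favours rows that are higher there and low in TMD8. No share over the 9595 rows that reached the level was taken, so the levels in this paragraph are a description. Rows 14333, 4374, 19723 and 2025 stayed below 1 CPM in the mean of every TMD8 group, so the line gives no useful reading of the row with the lowest compound difference. Row 14333 had no read in most TMD8 libraries, and its highest TMD8 group mean was 0.0181 CPM. Row 22194 went the other way, with 137, 89.0 and 104 CPM in TMD8 and 23.6, 14.0 and 23.8 CPM in OCI-Ly3 at 8 h with DMSO. Row 1460 read 1.09, 1.19 and 0.453 CPM in TMD8 against 50.5, 35.2 and 56.3 CPM in OCI-Ly3.

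The TMD8 compound libraries were not used to choose the members, and the question there was whether these rows were also lower in a second line. At 8 h 36 of the 38 members had a difference below 0, against 52.5% of all rows tested. The median was -0.19 over the members and -0.01 over all rows. A row is called where limma's two-sided p, adjusted over the 12589 rows tested, is below 0.05, and by this test 0 members and 0 rows in all were called (percent called 0). At an unadjusted p below 0.05 there were 5 members, all lower, and 131 rows, 119 of them lower. edgeR and DESeq2 on the recovered reads also called 0 rows, with 126 and 153 rows at an unadjusted p below 0.05.

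TMD8 libraries with the same number deviated together at 8 h. The fit with the number as a block called 1 member, row 22194, and 2 rows in all, with 17 members at an unadjusted p below 0.05, all lower. Over all rows the block also raised the number at that p, to 823 (6.54% of the rows), 634 of them lower. Row 22194 read 137, 89.0 and 104 CPM with DMSO and 77.6, 42.1 and 65.6 CPM with the compound. All 3 compound libraries lay below all 3 DMSO libraries, and the difference was -0.85 (SE 0.256, limma adjusted p = 1) without the block and -0.85 (SE 0.117, adjusted p = 0.0465) with it. Row 1097, in which the compound groups overlapped, read 58.2, 45.2 and 43.4 CPM with DMSO and 44.5, 31.3 and 34.6 CPM with the compound. The difference was -0.41 in both fits, with an adjusted p of 1 without and 0.2497 with the block.

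Taken pair by pair, 10 of the 38 members lay at -0.2 or lower in all 3 TMD8 8 h pairs, against 2.45% of the 9595 rows that reached the level, and 23 lay below 0 in all 3 pairs, against 23.8%. These counts were added after the data had been seen. The 10 were rows 17384, 13028, 22194, 19825, 1097, 18853, 4507, 18710, 12538 and 12740. Row 4507 read 857, 1382 and 1321 CPM with DMSO and 680.3, 1073 and 1003 CPM with the compound. Its unpaired groups overlapped, since both libraries numbered 1 were the lowest of their groups. In row 19825 the values were 369, 302 and 273 CPM and 296, 201 and 222 CPM, and in row 13028 they were 73.7, 68.2 and 64.0 CPM and 60.8, 56.2 and 52.4 CPM, with no overlap in the latter. Without regard to pairs, all compound libraries lay below all DMSO libraries in 6 members, against 4.41% of rows, and above them in 0 members, against 1.35%. The members together took up 0.498% ± 0.028 of the reads in the rows with DMSO and 0.400% ± 0.016 with the compound (SD, n = 3).

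At 24 h the members' median and share below 0 stood closer to those of all rows than at 8 h. The count of members with all compound libraries below all DMSO libraries did not. The TMD8 difference was below 0 in 24 of 38 members, against 48.2% of all rows, and the median was -0.09 against 0.00. limma called 0 members and 0 rows (percent called 0), as did edgeR and DESeq2, with 92, 105 and 120 rows at an unadjusted p below 0.05. In limma 4 members were among these, all lower. The compound libraries lay below the DMSO libraries in 7 members, against 1.74% of rows, and above them in 1 member, against 2.23%. Row 22194 read 30.5, 42.5 and 49.97 CPM with DMSO and 20.3, 20.9 and 28.5 CPM with the compound, with a difference of -0.78 (SE 0.256, adjusted p = 1) in limma. Row 1097 read 37.5, 37.1 and 34.6 CPM with DMSO and 23.2, 27.1 and 23.9 CPM with the compound, with a difference of -0.54 (SE 0.141, adjusted p = 1). Neither overlapped. Row 17384, among the lowest at 8 h, read 142, 129 and 149 CPM with DMSO and 129, 129 and 155 CPM with the compound at 24 h, and these values overlapped.

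Some members differed between the times in TMD8 with DMSO alone. Between DMSO at 24 h and at 8 h limma called 5 members higher, where the share over all rows tested was 3.45%, and 1 lower, where it was 3.71%. The median difference was 0.07 over the members and 0.02 over all rows. The member that fell was row 22194, from 137, 89.0 and 104 CPM at 8 h to 30.5, 42.5 and 49.97 CPM at 24 h, a difference of -1.41 (SE 0.256, adjusted p = 0.00310). Row 18710 rose from 5.27, 15.5 and 11.3 CPM to 24.4, 28.6 and 30.6 CPM, a difference of 1.40 (SE 0.304, adjusted p = 0.0105). Row 18853 rose from 48.1, 92.6 and 71.7 CPM to 110.5, 187 and 150.1 CPM, with 1.08 (SE 0.209, adjusted p = 0.00458), and row 9633 rose with 0.82 (SE 0.167, adjusted p = 0.00754). The groups did not overlap in any of these rows. In OCI-Ly3, rows 18710, 18853 and 9633 had time differences of -0.03, -0.50 and -0.40. Without the first TMD8 DMSO library at 8 h, the lowest of its group in rows 18710, 18853 and 9633, limma called 2 members in place of 6, and 1.39% of all rows in place of 7.16%. Rows 18710 and 9633 then lost their calls, while rows 22194 and 18853 kept theirs. In a fit of TMD8 alone limma also called 2 members, and 2.17% of all rows, and the calls of rows 18853, 18710 and 9633 were lost.

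The knockdown in OCI-Ly3 asked whether the rows chosen as lower with the compound were also lower with a hairpin against MALT1. The level of MALT1 itself was not checked. With hairpin 1 limma called 15 of the 38 members lower, against 7.75% of the 12303 rows tested, and 2 higher, against 7.32%. With hairpin 2 it called 20 lower, against 26.1%, and 7 higher, against 26.7%. The rows tested, here and in the other comparisons, include rows below the 5 CPM asked of the members, so the shares over them are not matched for level. The median difference was -0.30 with hairpin 1 and -0.51 with hairpin 2, against 0.01 over all rows for each. Both hairpins were compared with the same 3 control libraries, so the comparisons share the error of those controls, and their values are set side by side without a count of shared calls. With each hairpin 26 members had a difference below 0 and 12 had one above. Of all rows tested, 47.3% lay below 0 with hairpin 1 and 48.9% with hairpin 2. Some members changed sign without the control numbered 1, in either direction, as rows 17384 and 13028 did with hairpin 1.

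Fitted on OCI-Ly3 alone, limma called 5 members with hairpin 1, all lower, against 1.54% of all rows. Among the rows described below, rows 3254, 9018 and 4507 kept their hairpin 1 call in that fit. Rows 12448, 22194, 1460, 4374, 1097, 11015, 12177, 14385, 9633, 18188 and 4542 lost theirs. Without the control numbered 1 the counts with hairpin 1 were 18 lower, against 8.43% of all rows, and 4 higher, against 7.36%. With hairpin 2 they were 20 lower, against 29.8%, and 6 higher, against 27.4%, and the medians over the members moved to -0.21 and -0.35.

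**Figure D2:**
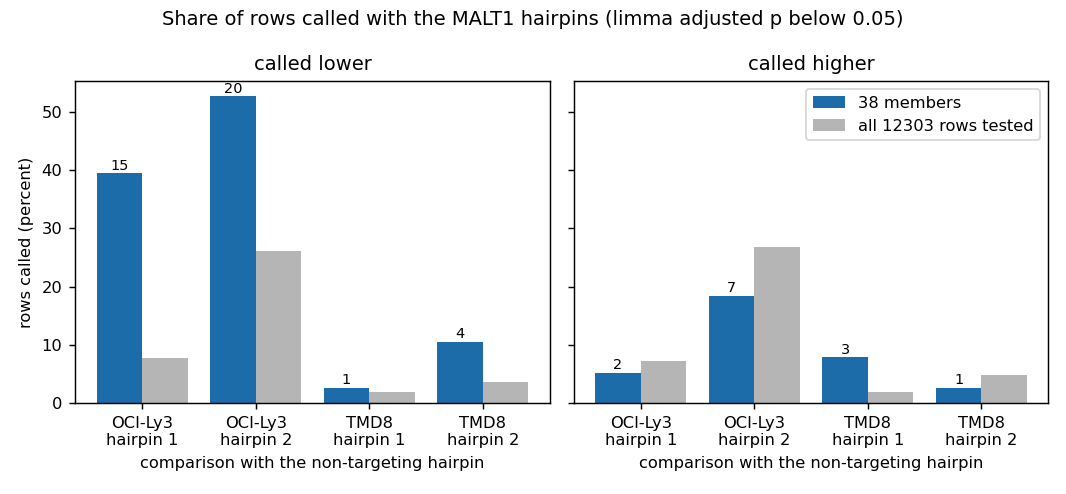
Percent of rows called lower (left) and higher (right) by limma at an adjusted p below 0.05 with each MALT1 hairpin against the non-targeting hairpin, for the 38 members (blue, with the number of members above each bar) and for all 12303 rows tested (grey). The members' bars for lower stand above the grey ones for both OCI-Ly3 hairpins, with 15 and 20 members against 7.75% and 26.1% of rows. In TMD8 the lower counts were 1 and 4 members against 1.89% and 3.67%. The 1 with hairpin 1, row 9018, is near the share of all rows and was lost in 5 of 6 fits that left out 1 library. Called higher in TMD8 were 3 members with hairpin 1 and 1 with hairpin 2, against 2.01% and 4.87%.

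The lowest adjusted p with both hairpins belonged to the most abundant member, row 4507. It read 955, 904 and 896 CPM with the non-targeting hairpin, 599, 610.3 and 596 CPM with hairpin 1 and 441, 460.1 and 495 CPM with hairpin 2. No library of one group reached into another. It fell by 0.61 with hairpin 1 (SE 0.0514, adjusted p = 2.5e-06) and by 0.98 with hairpin 2 (SE 0.0514, adjusted p = 1.13e-09). Row 11015 read 30.6, 19.2 and 27.0 CPM with the control, 15.9, 16.8 and 16.6 CPM with hairpin 1 and 9.64, 8.09 and 8.18 CPM with hairpin 2. It fell with both, with differences of -0.59 (SE 0.126, adjusted p = 0.00577) and -1.44 (SE 0.126, adjusted p = 2.31e-07), and all hairpin libraries lay below all controls. Row 18188 had the lowest difference with hairpin 2. Its CPM was 39.6, 19.8 and 19.5 with the control, 14.4, 12.7 and 11.3 with hairpin 1 and 7.32, 5.63 and 7.20 with hairpin 2, where the first control is the high one. The differences were -0.91 (SE 0.197, adjusted p = 0.00618) and -1.75 (SE 0.197, adjusted p = 2.82e-06), and without that control -0.58 and -1.43.

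Row 22194 read 59.2, 31.2 and 32.1 CPM with the control, 25.8, 26.1 and 22.8 CPM with hairpin 1 and 14.5, 15.6 and 13.3 CPM with hairpin 2. Its difference of -1.37 (SE 0.187, adjusted p = 1.88e-05) with hairpin 2 was -1.08 without the high first control. With hairpin 1 it was -0.63 (SE 0.187, adjusted p = 0.0341). This call was lost without that control, at -0.33, without any 1 of the hairpin 1 libraries, without the filter and in OCI-Ly3 alone. Row 3254 had tight groups, with 29.8, 28.8 and 29.8 CPM in the controls, 18.6, 18.6 and 18.5 CPM with hairpin 1 and 16.5, 16.0 and 18.9 CPM with hairpin 2. It fell with both hairpins, with differences of -0.64 (SE 0.114, adjusted p = 0.00178) and -0.75 (SE 0.114, adjusted p = 5.05e-05). Row 1097 read 20.1, 22.9 and 22.8 CPM with the control, 16.8, 18.3 and 16.4 CPM with hairpin 1 and 12.7, 12.4 and 13.6 CPM with hairpin 2. Its differences were -0.34 (SE 0.0814, adjusted p = 0.0125) and -0.72 (SE 0.0814, adjusted p = 3.11e-06), and the groups did not overlap, though the call with hairpin 1 was lost without the third hairpin 1 library.

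Row 4374, which had a low level, read 5.59, 3.05 and 3.81 CPM with the control, 1.799, 2.27 and 1.66 CPM with hairpin 1 and 0.818, 1.03 and 0.489 CPM with hairpin 2. The differences were -0.80 (SE 0.151, adjusted p = 0.00267) and -1.52 (SE 0.151, adjusted p = 8.71e-07), and the scale understates the change of a row this close to the floor. Rows 12448 and 1460 depended on the first control. Row 12448 read 25.9, 7.17 and 6.52 CPM with the control, 3.31, 2.49 and 3.41 CPM with hairpin 1 and 6.27, 5.28 and 4.49 CPM with hairpin 2. Its differences of -1.55 (SE 0.333, adjusted p = 0.00595) and -0.91 (SE 0.333, adjusted p = 0.0311) moved to -0.95 and -0.31 without that library, and the call with hairpin 2 was then lost, as it was without the second or the third hairpin 2 library. That call was also lost without the filter and in OCI-Ly3 alone. Row 1460 read 121, 45.6 and 45.4 CPM with the control, and its differences of -0.94 (SE 0.269, adjusted p = 0.0289) and -1.29 (SE 0.269, adjusted p = 0.000861) moved to -0.48 and -0.83, both still called. The call of row 1460 with hairpin 1 was lost without any 1 of the hairpin 1 libraries and in OCI-Ly3 alone, with an adjusted p of up to 0.179. Row 4542, which had the mean nearest to 0 over the compound pairs, fell with both hairpins, with differences of -0.30 (SE 0.0601, adjusted p = 0.00369) and -0.58 (SE 0.0601, adjusted p = 1.19e-06). Row 12177 fell as well, with -0.39 (SE 0.108, adjusted p = 0.0239) and -0.62 (SE 0.108, adjusted p = 0.000189), and had -0.22 and -0.45 without the first control; its call with hairpin 1 was lost without any 1 of the hairpin 1 libraries.

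Several rows gave different values with the 2 hairpins. Row 9593 read 19.5, 26.6 and 24.3 CPM with the control, 24.0, 25.2 and 21.2 CPM with hairpin 1 and 12.2, 11.0 and 11.1 CPM with hairpin 2. It fell with hairpin 2, with -0.97 (SE 0.110, adjusted p = 3.12e-06), while the difference with hairpin 1 was 0.01 (SE 0.110, adjusted p = 0.972), or -0.11 without the first control. Row 13028 fell with hairpin 2, with -0.61 (SE 0.156, adjusted p = 0.00391) and -0.33 without the first control, and had -0.13 with hairpin 1, or 0.15 without that control. Row 9018 read 12.2, 18.1 and 17.2 CPM with the control, 6.91, 6.31 and 6.97 CPM with hairpin 1 and 17.9, 18.4 and 24.1 CPM with hairpin 2. It fell with hairpin 1, with -1.11 (SE 0.124, adjusted p = 4.25e-05), and was called higher with hairpin 2, with 0.34 (SE 0.124, adjusted p = 0.0324), in groups that overlapped. The latter call was lost without the first control, at 0.17, without the third hairpin 2 library and in OCI-Ly3 alone. The hairpins were not tested against each other.

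The members that were higher with a hairpin included some of those lowest with the compound. Row 12898 read 53.0, 33.3 and 34.9 CPM with the control, 41.3, 37.7 and 43.3 CPM with hairpin 1 and 98.5, 100.1 and 111 CPM with hairpin 2. It rose with hairpin 2, with 1.36 (SE 0.120, adjusted p = 2.69e-07), the highest difference of any member. With hairpin 1 it had 0.04, and 0.25 without the first control, which was called (adjusted p = 0.00996). With the compound it had been lower, at 16.2, 16.2 and 12.5 CPM against 28.5, 23.3 and 23.1 CPM with DMSO at 24 h. Row 19825 read 382, 759 and 753 CPM with the control, 794, 793 and 768 CPM with hairpin 1 and 996, 995 and 991 CPM with hairpin 2, and here the first control is the low one. It rose with hairpin 2, with 0.72 (SE 0.171, adjusted p = 0.00227), or 0.39 without that control, and had 0.38 (SE 0.171, adjusted p = 0.137) with hairpin 1, or 0.05 without it.

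Row 14385 rose by a small amount with both hairpins, from 148, 147 and 153 CPM with the control to 174, 176 and 168 CPM with hairpin 1 and 185, 178 and 174 CPM with hairpin 2. Its differences were 0.21 (SE 0.0513, adjusted p = 0.0139) and 0.26 (SE 0.0513, adjusted p = 0.000547), and the call with hairpin 1 was lost without the first or the second hairpin 1 library. Row 9633 also rose with both, with 0.35 (SE 0.0670, adjusted p = 0.00273) and 0.28 (SE 0.0670, adjusted p = 0.00218). Row 14333, the lowest with the compound, read 10.9, 6.88 and 7.45 CPM with the control, 7.20, 7.21 and 8.34 CPM with hairpin 1 and 11.4, 12.4 and 9.33 CPM with hairpin 2. Its difference was -0.11 with hairpin 1, or 0.07 without the first control. With hairpin 2 it was 0.37 (SE 0.132, adjusted p = 0.0261), in overlapping groups. edgeR and DESeq2 did not call the latter, and it was lost in 4 of 6 fits that left out 1 library: without the second or the third control and without the first or the second hairpin 2 library. In OCI-Ly3 alone this call was lost as well. Row 17384, the second lowest with the compound, read 15.1, 77.6 and 76.9 CPM with the control, 72.6, 72.7 and 64.0 CPM with hairpin 1 and 83.1, 81.2 and 73.5 CPM with hairpin 2. The first control was far below the others, the groups overlapped, and neither difference, 0.61 (SE 0.393, adjusted p = 0.288) and 0.79 (SE 0.393, adjusted p = 0.101), was called. Without that control they were -0.15 and 0.03, so the positive difference with hairpin 1 turned negative and that with hairpin 2 came close to 0.

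Rows 18853, 14023, 18710 and 19723 were called with neither hairpin, with differences of -0.02, 0.11, 0.00 and -0.47 with hairpin 1 and 0.25, 0.08, 0.21 and -0.47 with hairpin 2. Each of these values rested on the first control. Without it they were -0.23, 0.35, -0.28 and -0.11 with hairpin 1 and 0.04, 0.31, -0.07 and -0.10 with hairpin 2. Row 14023 was then called higher with both hairpins (adjusted p = 0.00239 and 0.00106), and rows 18853 and 18710 were called lower with hairpin 1 (0.00786 and 0.0237).

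**Figure D3:**
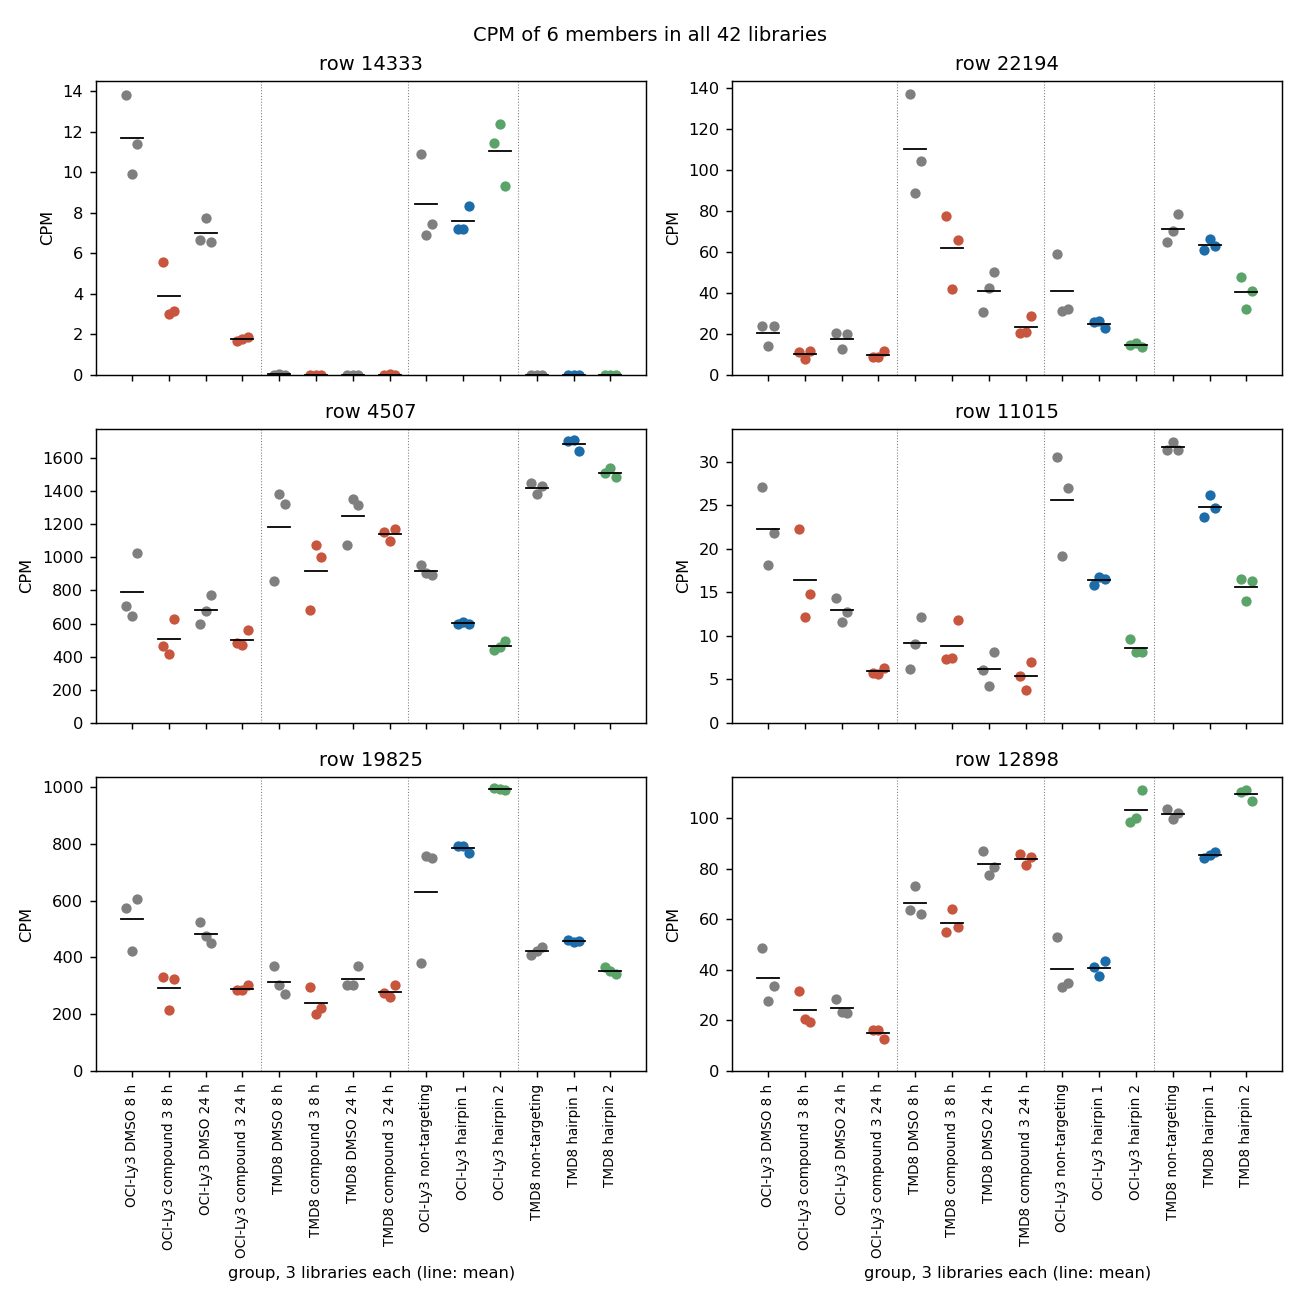
CPM of 6 members in all 42 libraries, 3 per group, with the group mean as a line (groups on the horizontal axis, each panel with its own vertical axis from 0; grey DMSO or non-targeting, red compound 3, blue hairpin 1, green hairpin 2). Row 4507 shows the OCI-Ly3 hairpin libraries below their controls while its TMD8 hairpin libraries lie above theirs, and row 12898 is lower with compound 3 in OCI-Ly3 but higher with hairpin 2.

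In TMD8 the number of members called with a hairpin depended on which libraries shaped the spread. With all libraries limma called 3 members higher with hairpin 1, against 2.01% of rows, and 1 lower, against 1.89%. With hairpin 2 it called 1 higher, against 4.87%, and 4 lower, against 3.67%. The medians were 0.07 and 0.04, against 0.02 over all rows for each, and the members together took up 0.629% ± 0.005 of the reads in the rows with the control, 0.632% ± 0.005 with hairpin 1 and 0.600% ± 0.006 with hairpin 2 (SD, n = 3). After median-ratio rescaling, hairpin 1 gave 1 member higher and 1 lower, and over all rows 163 higher and 276 lower in place of 247 and 233; for hairpin 2 the split over all rows was 440 and 546 in place of 599 and 452. These counts rest on a spread shared with OCI-Ly3: without the OCI-Ly3 control numbered 1, limma called 9 members higher with hairpin 1, against 8.65% of all rows, and 7 lower, against 7.23%. With hairpin 2 it then called 5 higher, against 12.9%, and 9 lower, against 9.93%. Fitted on TMD8 alone, it called 12 members with hairpin 1 and 14 with hairpin 2, against 14.1% and 21.5% of all rows.

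Row 11015 gave the lowest adjusted p in TMD8, with 31.4, 32.4 and 31.4 CPM with the control, 23.7, 26.3 and 24.7 CPM with hairpin 1 and 16.5, 14.0 and 16.3 CPM with hairpin 2. It fell with hairpin 2, with -0.98 (SE 0.126, adjusted p = 0.000168), and had -0.34 (SE 0.126, adjusted p = 0.155) with hairpin 1. Row 22194 read 64.6, 70.4 and 78.4 CPM with the control and 47.6, 31.9 and 41.1 CPM with hairpin 2, and fell with -0.82 (SE 0.187, adjusted p = 0.0124). Row 12949 read 63.1, 70.8 and 75.6 CPM with the control, 52.9, 41.8 and 38.3 CPM with hairpin 1 and 31.4, 32.0 and 33.4 CPM with hairpin 2, and fell with hairpin 2, with -1.09 (SE 0.245, adjusted p = 0.0117). None of these groups overlapped with their control. Without the third TMD8 control the calls of rows 22194 and 12949 were lost, and that of row 22194 was also lost without the second hairpin 2 library.

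Row 9018 fell with hairpin 1 in TMD8 too, from 53.0, 49.9 and 55.4 CPM to 34.2, 35.3 and 36.9 CPM, with -0.56 (SE 0.124, adjusted p = 0.0185). This call was lost in 5 of 6 fits that left out 1 library, all but the one without the second control, with an adjusted p of up to 0.0830. Its CPM with hairpin 2 was 67.3, 64.8 and 63.5, above the controls, with 0.30 (SE 0.124, adjusted p = 0.159). Row 4507 rose with hairpin 1, from 1451, 1384 and 1432 CPM to 1706, 1711 and 1645 CPM, with 0.25 (SE 0.0514, adjusted p = 0.0141), and rows 4542 and 14385 rose with 0.29 (SE 0.0601, adjusted p = 0.0128) and 0.22 (SE 0.0513, adjusted p = 0.0265). After rescaling, the calls of rows 4507 and 14385 were lost. That of row 14385 was also lost by edgeR and with the replicate block. With 1 library left out, the call was lost in 3 of 6 fits for row 4507 (the second control, the first or the second hairpin 1 library), in 5 of 6 for row 14385 (all but the third control) and in 2 of 6 for row 4542 (the first control or the second hairpin 1 library). The member that rose with hairpin 2 was row 6551, from 23.7, 25.5 and 21.1 CPM to 29.5, 32.3 and 29.4 CPM, with 0.37 (SE 0.0883, adjusted p = 0.0168), a call lost without the third control or the second hairpin 2 library.

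Tested directly, the hairpin effects of some members differed between the lines. For hairpin 1 the effect in OCI-Ly3 lay below that in TMD8 in 8 called members, against 3.93% of rows, and above it in 1, against 3.87%. For hairpin 2 it lay below in 16, against 21.4%, and above in 5, against 18.6%. Row 4374 is among those below for both hairpins, but it stayed below 1 CPM in TMD8, so no TMD8 effect could be read; without it 7 members lay below for hairpin 1 and 15 for hairpin 2. The median difference between the lines was -0.30 and -0.49 over the members, against -0.02 and -0.01 over all rows. After median-ratio rescaling the split over all rows for hairpin 1 was 559 above and 308 below, in place of 476 and 484. The counts of members given above are from before rescaling and cannot be set beside that split. Rows 12448, 1097, 4507, 18188, 4542 and 12949 kept their hairpin 1 calls after rescaling. The clearest member was row 4507, which fell in OCI-Ly3 and rose in TMD8 with hairpin 1. The effects differed by -0.86 (SE 0.0727, adjusted p = 9.55e-06) for hairpin 1 and by -1.07 (SE 0.0727, adjusted p = 1.04e-07) for hairpin 2. Row 18188 differed by -1.34 (SE 0.279, adjusted p = 0.0108) and -1.87 (SE 0.279, adjusted p = 0.000102), and row 4542 by -0.60 (SE 0.0850, adjusted p = 0.00120) and -0.77 (SE 0.0850, adjusted p = 7.95e-06). In the opposite direction, row 12898 differed by 1.26 (SE 0.170, adjusted p = 4.35e-05) for hairpin 2 and row 12949 by 1.22 (SE 0.347, adjusted p = 0.0426) for hairpin 1. The value of row 12949 was 0.79 without the OCI-Ly3 control numbered 1, and its call was lost by edgeR, without the filter and in 8 of 12 fits that left out 1 library: any hairpin 1 library of OCI-Ly3, any TMD8 control, and the second or the third TMD8 hairpin 1 library. Without the OCI-Ly3 control numbered 1, the count for hairpin 1 was 19 members in place of 9, and over all rows it rose from 7.80% to 14.5%.

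**Figure D4:**
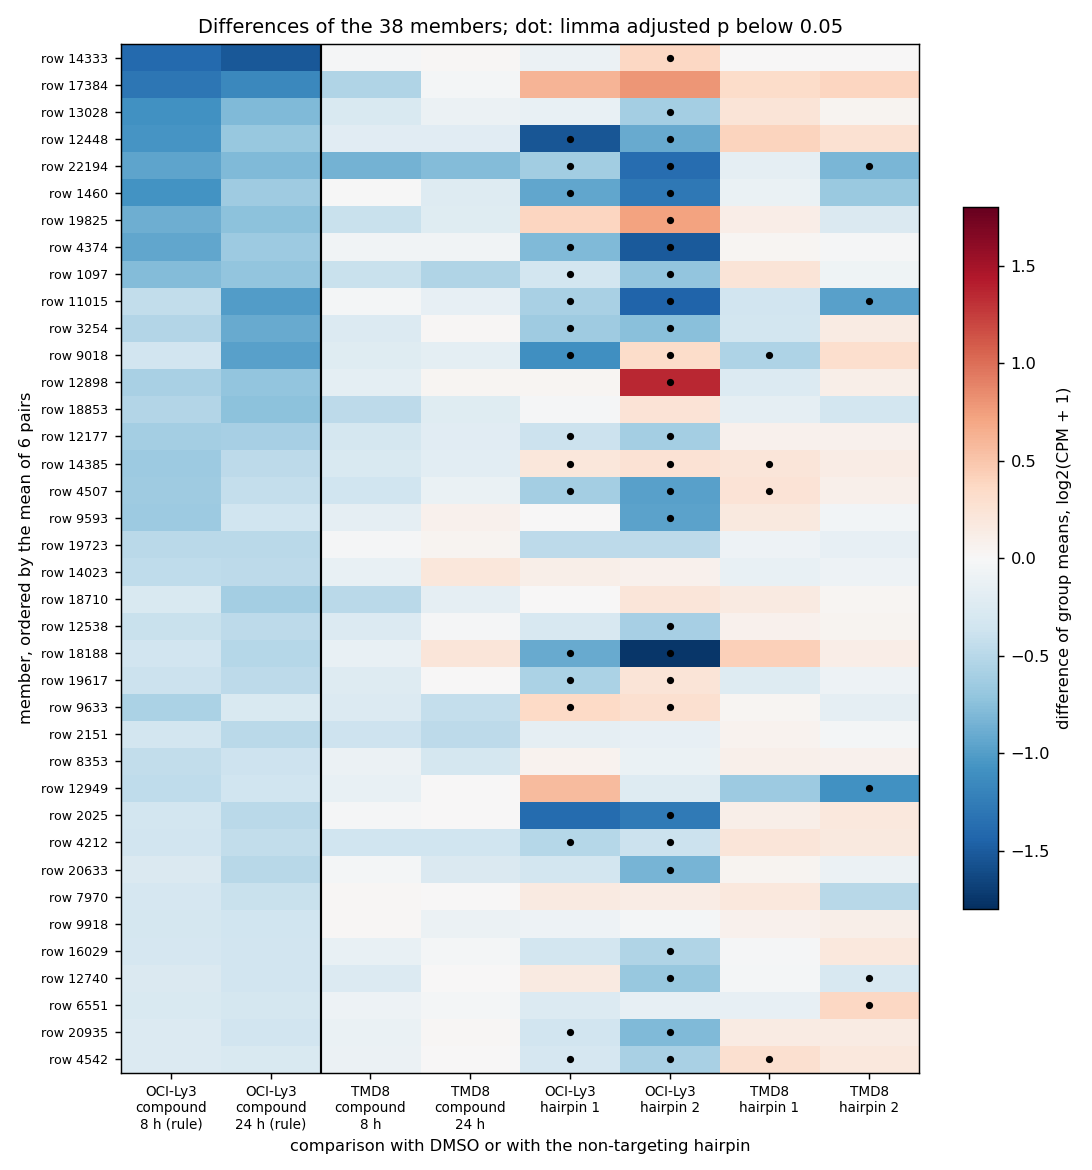
Difference of group means in log2(CPM + 1) for the 38 members (rows, ordered by the mean of the 6 compound pairs) in 8 comparisons with DMSO or the non-targeting hairpin (columns). Blue is lower and red higher; a dot marks a limma adjusted p below 0.05; the 2 columns left of the black line chose the members and carry no test. Dots are densest under the OCI-Ly3 hairpins, with 17 and 27 members called, where 1854 and 6504 of all 12303 rows were called. They are absent under the TMD8 compound, with 0 members and 0 of 12589 rows called at either time in the fit without a replicate block.

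The order of the members by their compound difference was set against their order in the other comparisons as a description. Across the 38 members, which are not independent and share libraries, Spearman's rho between the mean of the 6 compound pairs and the other difference was 0.337 for the compound in TMD8 at 8 h and 0.185 at 24 h. For the hairpins it was 0.156 and -0.001 in OCI-Ly3 and 0.024 and 0.140 in TMD8. Row 22194 had a difference below 0 in every comparison with DMSO or the non-targeting hairpin. It was called lower with both hairpins in OCI-Ly3, where the call with hairpin 1 needed every library of that comparison but the other controls, and with hairpin 2 in TMD8.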

How the data were processed

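Libraries of 42 samples were made with a stranded mRNA kit, per the labels' protocols, and the reads were mapped to hg19 with STAR, per the submitters' processing notes. Versions, the counting tool and its strand setting were not given in the sources used here. As deposited by the authors, values are CPM for 23250 rows that carry a number and no gene name, and RefSeq is the gene set that the file names mention. Every value was a whole multiple of 1 read (100% within 1e-06), and the rows held 71.9% to 79.6% of the implied total with the compound and 73.6% to 79.3% in the knockdown. Paralogs and overlapping genes that could split reads were not set apart. Precision is that of counting plus the spread between libraries, and the tests use the latter.

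Groups and replicate numbers come from the sample titles. The members, the rule and the named rows were chosen with earlier results of these data known. The rule names the 20 members with the lowest mean of the 6 pairs and, for each tested comparison, up to 3 called members with the lowest and up to 3 with the highest difference; other rows named singly were chosen after their values were seen. Each experiment was fitted with 1 group-means model of log2(CPM + 1) in limma 3.58.1 (R 4.3.3), eBayes with trend, two-sided, with Benjamini-Hochberg adjustment over rows with at least 1 CPM in at least 3 libraries; all 38 members passed this filter in both experiments, those below 1 CPM in TMD8 through OCI-Ly3. Comparisons that use OCI-Ly3 compound-experiment libraries, which chose the members, were not tested. Differences are in log2(CPM + 1), a scale that shrinks those of low rows. Alternatives were a pseudocount of 0.25, no filter or 5 CPM, median-ratio rescaling, edgeR 4.0.16 and DESeq2 1.42.0 on the recovered reads, 1 line alone, each library left out and a replicate block. The fits were tested on simulated data. By the correlation of same-numbered libraries' deviations from their group means, the numbers pair the OCI-Ly3 compound libraries (0.72 to 0.81 at 8 h, 0.38 to 0.60 at 24 h) and the TMD8 libraries at 8 h (0.75 to 0.92), and no other groups compared.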

Additional observations from a re-analysis of the deposited data

Results flagged for a closer look

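Each value here was picked out because the effect of a hairpin differed between OCI-Ly3 and TMD8 by a limma test of the difference itself, among the rows named by the rule. Values are the OCI-Ly3 effect minus the TMD8 effect in log2(CPM + 1), with the adjusted p over the 12303 rows tested. For hairpin 1 the count was 9 members, where 960 of the 12303 rows were called, and for hairpin 2 it was 21, where 4920 were called. Row 4374 is in both counts, but it stayed below 1 CPM in TMD8, where no effect could be read, so its difference is set by OCI-Ly3 and is not given; the counts without it were 8 and 20.

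For hairpin 1 the difference was -1.94 in row 12448 (adjusted p = 0.0223), -0.57 in row 1097 (0.00943), -0.86 in row 4507 (9.55e-06), -1.34 in row 18188 (0.0108) and -0.60 in row 4542 (0.00120), and it was 1.22 in row 12949 (0.0426). Row 12448 rests in part on the high first OCI-Ly3 control and had -1.35 without it. Its TMD8 level was low, with means of 1.54 CPM with the control and 2.34 CPM with hairpin 1, where the scale shrinks differences. Row 12949 had 0.79 without that control and was not called by edgeR or without the filter. With 1 library left out, the call was lost in 5 of 12 fits for row 12448 (the second OCI-Ly3 hairpin library, the first or the third TMD8 control, the second or the third TMD8 hairpin library) and in 8 of 12 for row 12949 (any OCI-Ly3 hairpin library or TMD8 control, the second or the third TMD8 hairpin library).

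For hairpin 2 the OCI-Ly3 effect was the lower one by -0.65 in row 13028 (adjusted p = 0.0278), -0.65 in row 1097 (0.000438), -0.46 in row 11015 (0.0490) and -0.90 in row 3254 (0.000441). The same direction was seen with -0.69 in row 12177 (0.00210), -1.07 in row 4507 (1.04e-07), -0.92 in row 9593 (0.000280), -1.87 in row 18188 (0.000102), -0.77 in row 4542 (7.95e-06) and -0.51 in row 6551 (0.00451). It was the higher one with 0.98 in row 19825 (0.00465), 1.26 in row 12898 (4.35e-05), 0.59 in row 18853 (0.0122) and 0.45 in row 9633 (0.00147). Without the first OCI-Ly3 control the values were -0.37 in row 13028, -0.33 in row 11015, 0.65 in row 19825 and 0.37 in row 18853. Row 11015, called in both lines, was not called by edgeR, after rescaling, without the filter, with the replicate block or in 9 of 12 fits that left out 1 library (all but the second OCI-Ly3 control, the first OCI-Ly3 hairpin library and the second TMD8 hairpin library). Row 13028 was lost in 3 of those 12 (the second OCI-Ly3 hairpin library, the second TMD8 control, the first TMD8 hairpin library).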

How the results depend on the processing

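Of 67 calls of single rows, 37 held in every alternative and none turned its direction; 112 of 1056 recomputed values lost the call. The number of members depended on the rule: it was 117 with a limit of -0.1, 16 with -0.3 and 142 with group means in place of pairs, and 54 to 96 with 1 replicate number left out. Leaving out 1 library gave 2 to 7 members for TMD8 culture time, 12 to 23 and 23 to 29 for OCI-Ly3 hairpins 1 and 2, 0 to 3 and 2 to 5 for TMD8 hairpins 1 and 2, and 5 to 19 and 17 to 27 for their line differences. For TMD8 hairpin 1 the count was 1 without non-targeting replicate 1 or hairpin replicate 1, 2 without non-targeting replicate 2 or hairpin replicate 3, and 0 without hairpin replicate 2; for TMD8 hairpin 2 it was 2 without non-targeting replicate 3 and 3 without hairpin replicate 2. For the hairpin 1 line difference it was 5 without TMD8 non-targeting replicate 1 or 3 or TMD8 hairpin replicate 2 or 3. With 1 line alone the counts were 2 for TMD8 culture time, 5 for OCI-Ly3 hairpin 1, and 12 and 14 for the TMD8 hairpins; without OCI-Ly3 non-targeting library 1 the last pair were 16 and 14. Median-ratio rescaling gave 2 for TMD8 hairpin 1, and DESeq2 gave 9 for TMD8 hairpin 2. The replicate block gave 1 member at 8 h and 2 at 24 h for the TMD8 compound (rows 1097 and 22194, adjusted p = 0.0395 and 0.0404; the numbers do not pair at 24 h) and 12 for TMD8 culture time, and it changed no other count by over 1.5 times. The counts of members called in this section stand without the share over all rows in the same fit. A change in them therefore cannot be read as one of the members alone. The causes were not tested. Depth limits the rows below 1 CPM in TMD8.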
